A study of Mus musculus with 2 samples.

Results

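The genes described here encode the subunits of the proteasome in dysplastic mouse gastric organoids. They were taken by name: protein-coding genes whose symbol begins with Psma, Psmb, Psmc or Psmd and a number, without the immunoproteasome genes Psmb8, Psmb9 and Psmb10. The rule found 37 genes among the 32227 in the files and used no measured value. Of these, 16 encode the core particle, 17 the regulatory particle and 3 the chaperones Psmd5, Psmd9 and Psmd10 that help to assemble the regulatory particle. The last, Psmc3ip, matches the name only: it encodes a partner of meiotic recombination proteins, is no proteasome subunit, and is kept in the counts but left out of both particles. Cells came from Meta4 organoids, a line from the mouse stomach corpus, labelled as induced to dysplasia. Both libraries carry the allele Mist1-CreERT2Tg/+, in which the Mist1 promoter drives an inducible Cre recombinase, in the stomach mainly in chief cells. Both also carry the transgene LSL-K-ras(G12D)Tg/+, an activated K-ras that Cre switches on. Organoids were kept for 1 day with pyrvinium, an anthelmintic drug, or with DMSO, its solvent, to ask which cells respond before the organoids change shape. Each treatment gave 1 single-cell library of 1 organoid line, so no difference below has a replicate check or a p-value. "Higher" and "lower" compare these 2 libraries, intervals are 95%, and they cover counting error only.

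The proteasome is the protease that degrades most ubiquitin-tagged proteins of the cell. Its barrel-shaped core particle is built of outer alpha rings and inner beta rings, and Psmb5, Psmb6 and Psmb7 are the beta subunits that cut peptide bonds. The regulatory particle caps the barrel: its base holds a ring of ATPases encoded by Psmc1 to Psmc6, which unfold substrates, and its lid holds Psmd14, which removes the ubiquitin chain. In mammals the transcription factor NFE2L1 raises the genes of both particles together when proteasome activity is short, by binding antioxidant response elements near them.

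The pyrvinium library held 854 cells with a median of 31517 counts, and the DMSO library 1602 cells with a median of 18593 counts. Cells summed to 37046673 counts with pyrvinium and 39980497 with DMSO, and the libraries shared 0 cell barcodes. Ribosomal protein genes took 30.4% of the pyrvinium sum and 25.7% of the DMSO sum. The 6 epithelial markers were all detected, at 5375 CPM (counts per 1000000 counts of a library's summed cells) with pyrvinium and 8199 CPM with DMSO in sum. Most markers of mature corpus cells were near 0. Muc5ac had 1 count with pyrvinium and 0 with DMSO, Atp4b had 0 with pyrvinium and 2 with DMSO, and the parietal markers together reached 1.81 CPM with pyrvinium and 1.95 CPM with DMSO. The chief cell markers reached 4.45 CPM with pyrvinium and 9.40 CPM with DMSO. Exceptions were Tff1, a surface mucous marker, at 404 CPM with pyrvinium and 333 CPM with DMSO, and the mucous neck marker Tff2 at 33.7 CPM with pyrvinium and 30.2 CPM with DMSO. Muc6, the other mucous neck marker, was at 1.84 CPM with pyrvinium and 3.88 CPM with DMSO. The tuft cell marker Pou2f3 was at 93.6 CPM with pyrvinium and 79.7 CPM with DMSO. The median of the 3 tuft markers was only 0.675 CPM with pyrvinium and 0.900 CPM with DMSO, so Dclk1 and Trpm5 were near 0. The 5 fibroblast markers summed to 0.756 CPM with pyrvinium and 1.00 CPM with DMSO. The 6 immune markers summed to 29.6 CPM with pyrvinium and 21.6 CPM with DMSO, of which Cd68 gave 28.3 CPM with pyrvinium and 21.04 CPM with DMSO. The 3 endothelial markers summed to 58.9 CPM with pyrvinium and 43.2 CPM with DMSO, of which Cdh5 gave 56.6 CPM with pyrvinium and 41.7 CPM with DMSO. A gene was compared when both libraries added up to 20 counts or more, and was past the limit when its ratio was 1.5-fold or more with the whole interval on that side of 1. Of 15586 genes compared, 7.57% were past the limit upward with pyrvinium and 15.5% downward. Their median log2 ratio was -0.08. Scaled by the median of ratios, these shares were 9.996% upward and 12.5% downward.

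Proteasome transcripts were near the same level in both libraries. All 37 genes together held 6444 CPM (6419 to 6470) with pyrvinium and 6998 CPM (6972 to 7024) with DMSO, a log2 ratio of -0.12 (-0.13 to -0.11). For comparison, the same genes held 6145 CPM with pyrvinium and 6449 CPM with DMSO in barcodes of 100 to 500 counts, which were not counted as cells. Psma8 and Psmb11 fell under the 20-count minimum, and 35 passed it. Of those 35, 0 were at least 1.5-fold higher and 3 were at least 1.5-fold lower: the ATPase genes Psmc3 and Psmc4, and Psmc3ip. That is 8.57% lower, against 15.5% of all genes, and against 13.8% lower and 5.86% higher among the 6480 genes in the same range of levels. The median log2 ratio of the 35 was -0.19, and 26 of them lay below 0, or 74.3% of them against 56.8% of all genes. By the median of ratios the members' median was -0.11 and that of all genes 0.0022. With equal cluster weights this order turned round, at -0.06 for the members and -0.10 for all genes. The place of the members below the all-gene median therefore depended on the setting. Equal cluster weights also leave out clusters with under 30 cells of a library. Weighting and choice of cells thus cannot be told apart. The interval lay below 1 at any size in 25 of the 35 genes and above 1 in 7, against 45.1% and 30.8% of those 6480 genes. The 6480 genes had a median of 24.9 CPM with pyrvinium and 27.0 CPM with DMSO. The 35 had medians of 116 CPM with pyrvinium and 151 CPM with DMSO. Intervals are narrower at higher counts, so these shares are not like for like.

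**Figure D1:**
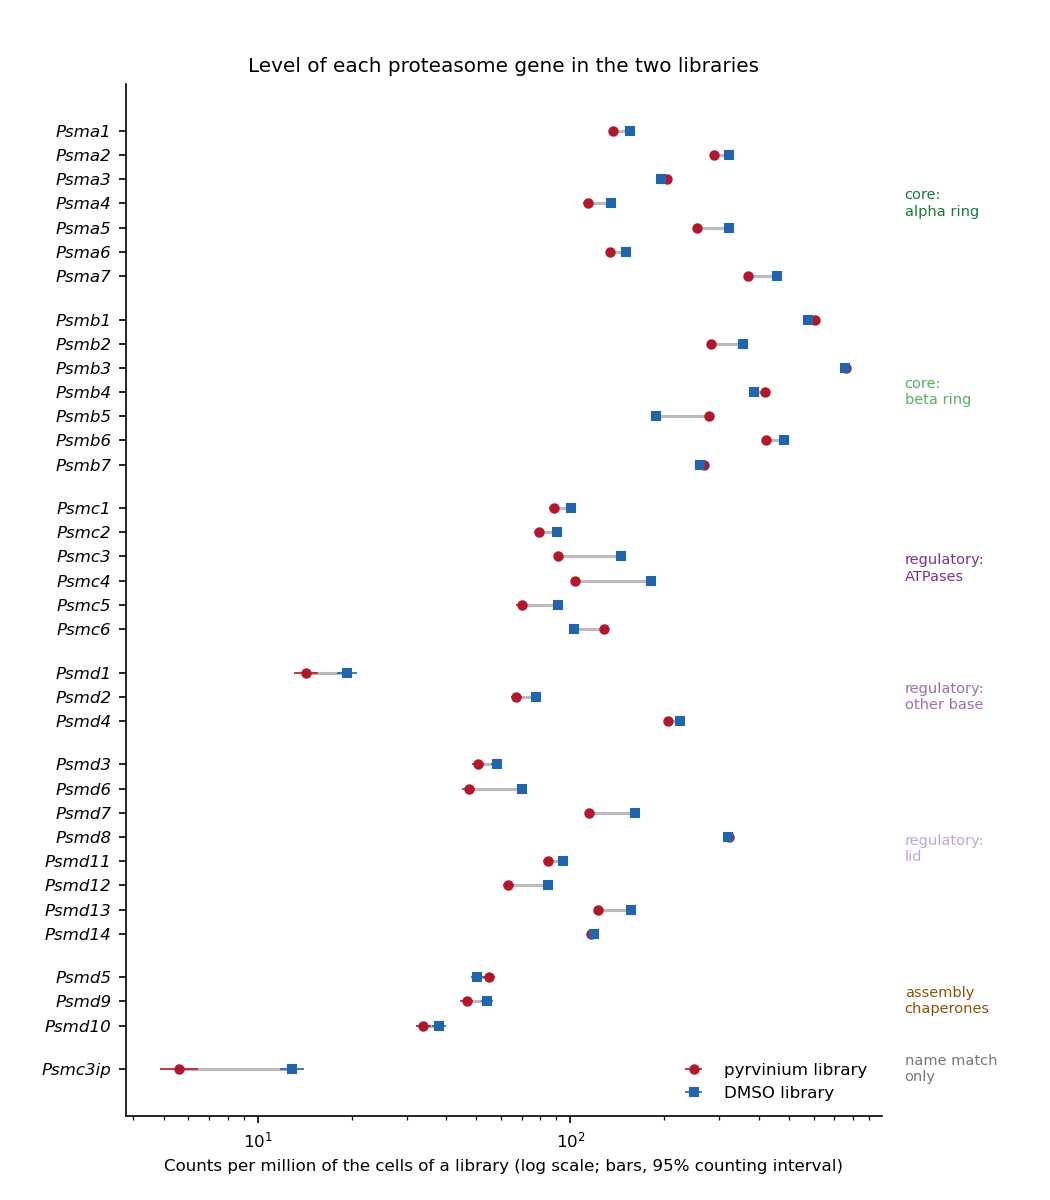
Level of each of the 35 proteasome genes that passed the count minimum, in CPM on a log axis, with circles for the pyrvinium library, squares for the DMSO library and bars for 95% counting intervals. Most pairs of points lie close together, and Psmb5, Psmc3, Psmc4, Psmd6 and Psmc3ip are the most separated.

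Summed over genes, the regulatory particle was lower than the core particle relative to DMSO. Both sums hold genes found by the name rule, so the regulatory subunits Sem1 and Adrm1, described below, are left out. Core genes summed to 4534 CPM (4512 to 4556) with pyrvinium and 4748 CPM (4726 to 4769) with DMSO, a log2 ratio of -0.07 (-0.08 to -0.06). Regulatory genes summed to 1769 CPM (1756 to 1783) with pyrvinium and 2095 CPM (2081 to 2109) with DMSO, a log2 ratio of -0.24 (-0.26 to -0.23). The 2 intervals do not overlap, but the parts of each particle differed. Within the core, the summed log2 ratio was -0.21 for the alpha ring and 0.01 for the beta ring. Within the regulatory particle it was -0.34 for the ATPases, -0.16 for the other base genes and -0.21 for the lid. The median log2 ratio of single genes was -0.17 in the core and -0.21 in the regulatory particle. For the core sum the direction depends on scaling: its log2 ratio was 0.011 without mitochondrial and ribosomal protein genes in the total and 0.020 by the median of ratios, where the regulatory sum stayed at -0.17 and -0.16. With equal weight for each of 4 clusters shared by the libraries, the regulatory log2 ratio was -0.11 and the core ratio -0.04.

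Alpha ring genes, which form the gate and the docking surface of the core, were slightly lower. Their sum was 1500 CPM (1487 to 1512) with pyrvinium and 1739 CPM (1726 to 1752) with DMSO. Of the 7 that passed the minimum, 0 were past 1.5-fold, against 7.57% higher and 15.5% lower among all genes. Psma5 stood at 254 CPM with pyrvinium and 321 CPM with DMSO, the lowest log2 ratio of the ring at -0.34 (-0.38 to -0.30). Psma7 was at 369 CPM with pyrvinium and 459 CPM with DMSO, a log2 ratio of -0.31. Both intervals lie wholly below 0, but neither gene is past the 1.5-fold limit. Psma3 was the only member of the ring with a ratio above 0 in this scaling, at 203 CPM with pyrvinium and 195 CPM with DMSO (log2 ratio 0.06, 0.01 to 0.10). The remaining 4 genes were lower by small amounts. Psma1 was at 137 CPM with pyrvinium and 155 CPM with DMSO. Psma2 was at 289 CPM with pyrvinium and 323 CPM with DMSO, and Psma4 at 114 CPM with pyrvinium and 135 CPM with DMSO. Psma6, at 134 CPM with pyrvinium and 151 CPM with DMSO, had a log2 ratio of -0.17, as did Psma1. Psma8, an alpha subunit of testis proteasomes, was close to absent with 6 counts in pyrvinium cells and 5 in DMSO cells, and is given no ratio.

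Beta ring genes lay on both sides of the DMSO level, and their sum was level at 3034 CPM (3017 to 3052) with pyrvinium and 3008 CPM (2991 to 3026) with DMSO. Psmb5 (ENSMUSG00000022193), the chymotrypsin-like catalytic subunit and the main target of bortezomib, had the highest ratio of all 35 genes. It was at 278 CPM (272 to 283) with pyrvinium and 188 CPM (184 to 192) with DMSO, 1.48-fold higher (log2 ratio 0.56, 0.52 to 0.61). This is just short of 1.5-fold, and Psmb5 passed the limit when scaled without mitochondrial and ribosomal protein genes (0.64) or by the median of ratios (0.65). The other catalytic genes did not share this difference. Psmb6, the caspase-like subunit, was at 422 CPM with pyrvinium and 482 CPM with DMSO (log2 ratio -0.19, -0.22 to -0.16). Psmb7, the trypsin-like subunit, was at 267 CPM with pyrvinium and 259 CPM with DMSO (log2 ratio 0.04, 0.00 to 0.08). The noncatalytic Psmb2 had the lowest ratio of the ring, with 281 CPM in pyrvinium cells and 356 CPM in DMSO cells (log2 ratio -0.34, -0.37 to -0.30). The other structural genes lay close in both libraries. Psmb3 was at 762 CPM with pyrvinium and 758 CPM with DMSO. Psmb1 was at 605 CPM with pyrvinium and 577 CPM with DMSO, and Psmb4 at 419 CPM with pyrvinium and 388 CPM with DMSO. Psmb11, the beta subunit of thymus epithelium, had 2 counts with pyrvinium and 1 with DMSO.

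The ATPase ring was the most divided group. Its 6 genes summed to 561 CPM (554 to 569) with pyrvinium and 711 CPM (702 to 719) with DMSO, a log2 ratio of -0.34 (-0.37 to -0.31). Psmc4 (ENSMUSG00000030603) was at 104 CPM (100.3 to 107) with pyrvinium and 181 CPM (177 to 185) with DMSO, 1.75-fold lower (log2 ratio -0.81, -0.86 to -0.75). Psmc3 (ENSMUSG00000002102) was at 91.6 CPM (88.5 to 94.7) with pyrvinium and 145 CPM (142 to 149) with DMSO, 1.59-fold lower (log2 ratio -0.66, -0.73 to -0.60). Psmc4 stayed past 1.5-fold in all 10 settings that recompute single genes. Psmc3 did in 8 of them, and was at -0.58 by the median of ratios and -0.53 with equal cluster weights. Psmc6 (ENSMUSG00000021832) went the other way, at 128 CPM (125 to 132) with pyrvinium and 102 CPM (99.3 to 106) with DMSO (log2 ratio 0.33, 0.27 to 0.39). It was the only ATPase gene with a ratio above 0 over all cells. Psmc5 was at 69.8 CPM with pyrvinium and 91.0 CPM with DMSO, a log2 ratio of -0.38. Psmc1, at 88.7 CPM with pyrvinium and 100.3 CPM with DMSO, and Psmc2, at 79.1 CPM with pyrvinium and 90.5 CPM with DMSO, were lower by log2 ratios of -0.18 and -0.19. With equal cluster weights their log2 ratios were 0.06 and 0.09, so their direction is not settled. The sign of Psmb3, Psmd2, Psmd8 and Psmd14 also depended on the setting.

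The rest of the base and the lid were lower by less than 1.5-fold. Among the base genes, Psmd1, a scaffold subunit, had the lowest ratio with 14.3 CPM in pyrvinium cells and 19.3 CPM in DMSO cells (log2 ratio -0.43, -0.60 to -0.27). Its log2 ratio was -0.01 with equal cluster weights. Psmd2, the other scaffold, was at 67.1 CPM with pyrvinium and 77.6 CPM with DMSO, and the ubiquitin receptor gene Psmd4 at 206 CPM with pyrvinium and 224 CPM with DMSO (log2 ratio -0.12, -0.17 to -0.08). In the lid, Psmd6 came closest to the limit at 47.3 CPM with pyrvinium and 69.9 CPM with DMSO (log2 ratio -0.56, -0.65 to -0.48). Psmd7, the partner of the deubiquitinase Psmd14, was at 115 CPM with pyrvinium and 161 CPM with DMSO (log2 ratio -0.48). Psmd14 itself was level, at 116 CPM with pyrvinium and 119 CPM with DMSO (log2 ratio -0.03, -0.09 to 0.03). So was Psmd8, the lid gene with the highest ratio, at 321 CPM with pyrvinium and 319.7 CPM with DMSO (log2 ratio 0.01, -0.03 to 0.04). The other lid genes lay between these. Psmd12 was at 63.3 CPM with pyrvinium and 84.8 CPM with DMSO and Psmd13 at 123 CPM with pyrvinium and 157 CPM with DMSO. Psmd3 was at 50.8 CPM with pyrvinium and 58.1 CPM with DMSO and Psmd11 at 84.5 CPM with pyrvinium and 94.4 CPM with DMSO. The chaperones showed small differences: Psmd5 was at 54.9 CPM with pyrvinium and 50.2 CPM with DMSO (log2 ratio 0.13, 0.04 to 0.22) and Psmd9 at 46.7 CPM with pyrvinium and 54.2 CPM with DMSO (-0.22, -0.31 to -0.12). Psmd10, also called gankyrin, was at 33.9 CPM with pyrvinium and 38.0 CPM with DMSO. Psmc3ip, which is no subunit, had the lowest ratio of the 35 at 5.61 CPM with pyrvinium and 12.9 CPM with DMSO, 2.29-fold lower (log2 ratio -1.20, -1.43 to -0.96). With equal cluster weights its log2 ratio was -0.61.

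**Figure D2:**
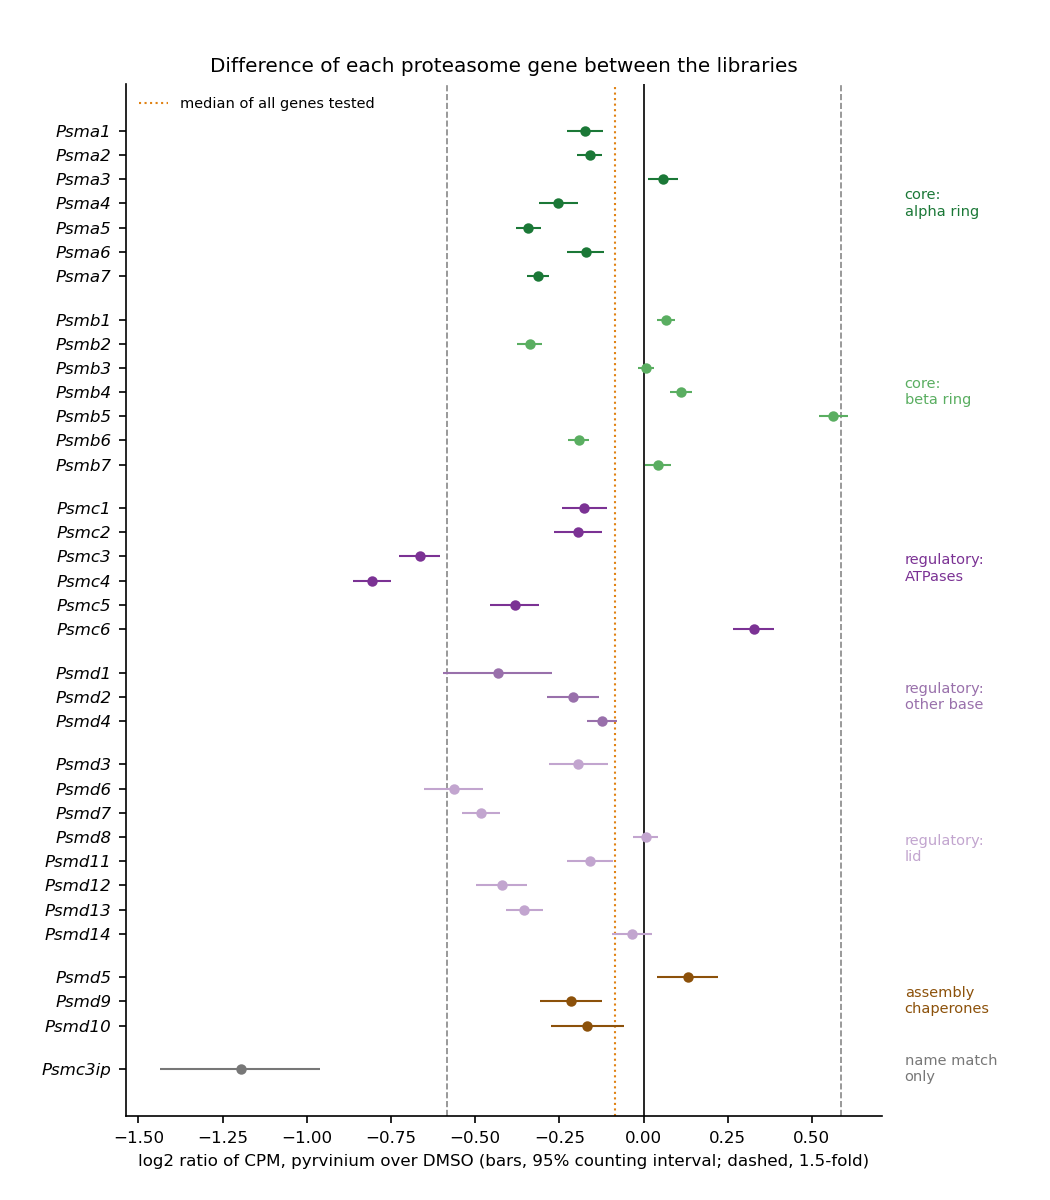
log2 ratio of CPM, pyrvinium over DMSO, for the same 35 genes by role, with 95% counting intervals, dashed lines at 1.5-fold and a dotted line at the median of all genes tested (-0.08). Psmc3, Psmc4 and Psmc3ip lie left of the lower dashed line, and Psmb5 lies just inside the upper one.

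Exons of 9 members overlap exons of another gene in the GENCODE M21 annotation, and whether counting used strand is not given in the sources used here. Reads of pairs on opposite strands cannot be told apart without it, so these 9 levels are less certain. They are Psma4, Psma5, Psmb7, Psmc3, Psmc3ip, Psmd1, Psmd3, Psmd9 and Psmd13. Psmd1 also overlaps Gm21972 on the same strand, where strand does not help. The partner of Psmc3, Slc39a13, was at 7.32 CPM with pyrvinium and 6.28 CPM with DMSO. That of Psmc3ip, Mlx, was at 43.6 CPM with pyrvinium and 41.9 CPM with DMSO. Some partners differed more. That of Psma5, 1700010K24Rik, was at 30.6 CPM with pyrvinium and 11.7 CPM with DMSO (log2 ratio 1.38). That of Psmd13, Sirt3, was at 33.9 CPM with pyrvinium and 20.4 CPM with DMSO (log2 ratio 0.74). That of Psmb7, Nek6, was at 60.95 CPM with pyrvinium and 49.9 CPM with DMSO (log2 ratio 0.29). AY074887 over Psma4, Htr2b over Psmd1 and Gm12356 over Psmd3 were near 0. The effect of overlaps on the ratios was not tested. The search covered protein-coding genes and the main classes of long noncoding RNA genes only, so pseudogenes and other types were not searched. Among the types searched, Psmb5, Psmc4 and Psmc6 have no such overlap in that annotation.

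The upstream windows of the subunits at both ends of the range are shown because NFE2L1 acts at antioxidant response elements. Each is the 250 bases before the annotated start in RefSeq, build GRCm38.p6, written in the direction of transcription. They lie at chr14:54617996-54618245 on the minus strand for Psmb5, chr14:45329574-45329823 on the plus strand for Psmc6 and chr7:28050093-28050342 on the minus strand for Psmc4. Capitals mark the letters TGACNNNGC, the core of the element, on either strand.
Psmb5: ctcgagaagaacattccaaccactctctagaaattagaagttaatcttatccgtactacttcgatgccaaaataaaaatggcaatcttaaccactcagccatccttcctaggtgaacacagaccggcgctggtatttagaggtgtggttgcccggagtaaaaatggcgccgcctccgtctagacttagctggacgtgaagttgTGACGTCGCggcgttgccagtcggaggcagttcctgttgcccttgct
Psmc6: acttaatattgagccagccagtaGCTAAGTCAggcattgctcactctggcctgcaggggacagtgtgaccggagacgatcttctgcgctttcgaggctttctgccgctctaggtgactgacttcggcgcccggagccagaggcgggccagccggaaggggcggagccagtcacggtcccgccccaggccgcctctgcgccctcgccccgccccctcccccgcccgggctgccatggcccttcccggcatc
Psmc4: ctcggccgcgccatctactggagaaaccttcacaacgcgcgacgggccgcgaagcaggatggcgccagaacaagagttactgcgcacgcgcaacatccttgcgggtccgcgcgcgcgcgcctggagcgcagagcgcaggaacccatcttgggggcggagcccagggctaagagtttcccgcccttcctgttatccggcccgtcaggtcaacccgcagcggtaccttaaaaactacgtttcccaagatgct
The Psmb5 window holds the letters on the printed strand, beginning 47 bases before the start. In Psmc6 they lie on the opposite strand, with the match beginning 227 bases before the start on the printed strand. The Psmc4 window holds none. Over the 30 members found in the table, 5 of 32 windows (15.6%) held the letters, against 10.6% of 20404 windows of protein-coding genes. Those with a match were Psmb5, Psmb6, Psmc6, Psmd9 and Psmd12. Their ratios did not run one way, since Psmb6, Psmd9 and Psmd12 had log2 ratios of -0.19, -0.22 and -0.42. The CCAAT box, searched on both strands, was in 13 of 32 windows (40.6%) of members and in 35.2% of protein-coding windows. A match of letters is no evidence of binding.

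Clusters were made without proteasome, ubiquitin and chaperone genes, and 4 of 7 held at least 30 cells of each library. Leading genes compare a cluster with all other cells, both libraries pooled, so differences between the libraries can enter them. Cluster 1, led by Gdf15, Ddit3 and Dusp4, held 454 pyrvinium and 147 DMSO cells. Clusters 2 and 4 were led by genes of dividing cells: Cdc20, Ccnb1 and Aurkb in cluster 2, with 61 pyrvinium and 168 DMSO cells, and Tyms, Birc5 and Pclaf in cluster 4, with 54 pyrvinium and 451 DMSO cells. Cluster 3, led by Ifitm1, Agr2 and Mmp7, held 41 pyrvinium and 356 DMSO cells. Cluster 5, with Atf5, Hsd17b13 and Chac1 among its leading genes, held 228 of the 854 pyrvinium cells and only 6 DMSO cells. Clusters 5, 6 and 7 were left out of the ratios within clusters and of the equal cluster weights. Proteasome levels differed more among DMSO clusters than among pyrvinium clusters. In pyrvinium cells the 37 genes summed to 6274, 7469, 6327, 7418 and 6368 CPM in clusters 1 to 5. In DMSO cells they summed to 6046, 7567, 6681 and 8347 CPM in clusters 1 to 4. Cluster 6, with only 7 pyrvinium and 299 DMSO cells and with AA467197 and Ndrg1 among its leading genes, was lowest in the DMSO library at 4998 CPM, and cluster 7, with 9 pyrvinium and 175 DMSO cells, was at 7129 CPM. In both libraries, the highest sums among these clusters were those of clusters 2 and 4.

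**Figure D3:**
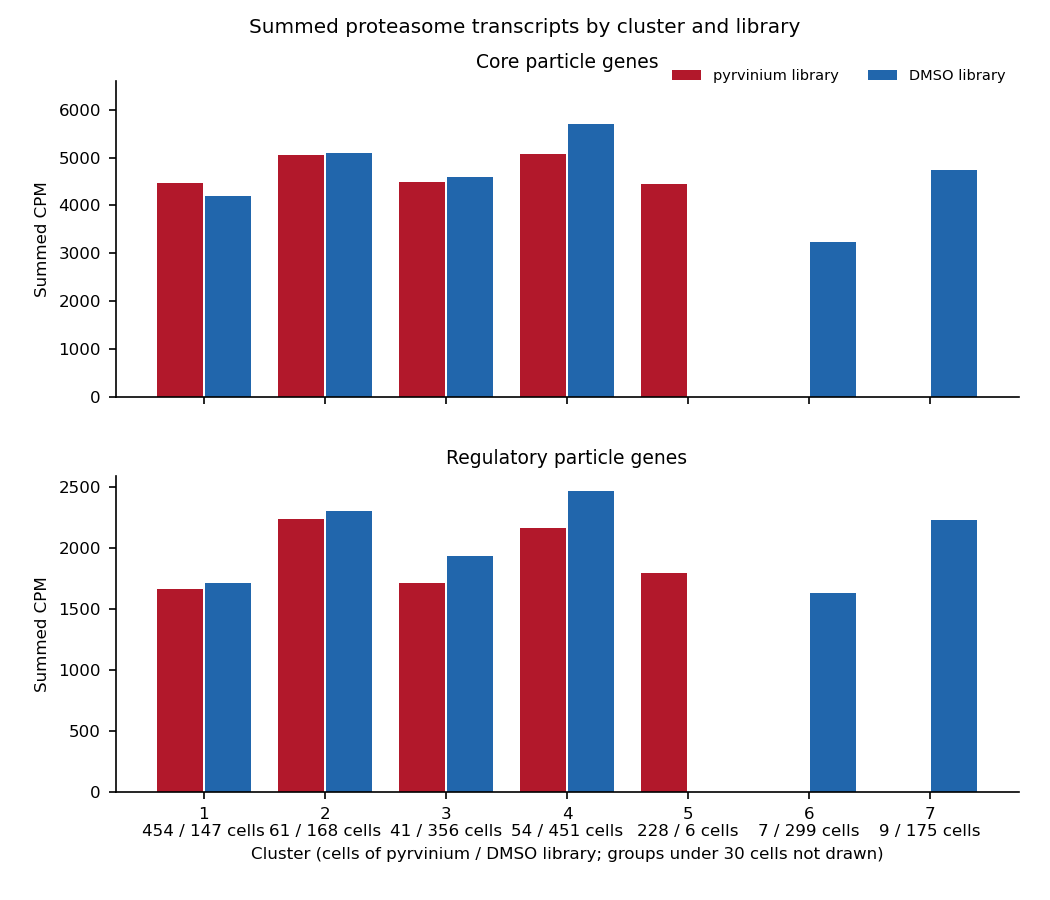
Summed CPM of core particle genes (top) and regulatory particle genes (bottom) in each cluster, pyrvinium bars left of DMSO bars, with the number of cells of each library under the axis. The tallest core bar is that of DMSO cells in cluster 4 and the lowest that of DMSO cells in cluster 6.

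Within clusters the differences in sums were small. The log2 ratio of core genes was 0.09 (0.07 to 0.12) in cluster 1, -0.01 (-0.04 to 0.02) in cluster 2, -0.04 (-0.08 to 0.01) in cluster 3 and -0.17 (-0.20 to -0.14) in cluster 4. For regulatory genes it was -0.04 (-0.08 to -0.01), -0.04 (-0.09 to 0.01), -0.18 (-0.24 to -0.11) and -0.19 (-0.24 to -0.14). For all 37 genes the sum was slightly higher with pyrvinium in cluster 1 (log2 ratio 0.05, 0.03 to 0.07). The median log2 ratio of the 35 genes was 0.014, 0.036, -0.11 and -0.14 in clusters 1 to 4, and that of all genes -0.13, -0.08, -0.09 and -0.11. Whether clusters differ in their response was not tested. Psmb5, Psmc3, Psmc4 and Psmc6, picked for their ratios over all cells, kept their direction in each of the 4 clusters. The clusters are parts of the same 2 libraries, so this is no independent check. Psmb5 was at 289 CPM with pyrvinium and 189 CPM with DMSO in cluster 1 (log2 ratio 0.61), and its log2 ratio was 0.39, 0.66 and 0.24 in clusters 2, 3 and 4. Psmc6 was higher in all 4 as well, most in cluster 2 at 204 CPM with pyrvinium and 117 CPM with DMSO (log2 ratio 0.80, 0.63 to 0.98). Psmc4 was lower in all 4, with log2 ratios of -0.63, -1.002, -0.57 and -0.67. Psmc3 was too, at -0.36, -0.60, -0.73 and -0.43. Each of these 16 intervals lies on 1 side of 0. This is not particular to these genes. The intervals of Psma7 and Psmd7 also lie below 0 in each cluster, and Psma5 and Psmb2 kept their sign. Psmc3ip had log2 ratios of -0.55, -0.32, -1.92 and -0.46, with intervals that hold 0 in clusters 1, 2 and 4. Psmd1, lower over all cells, was at 38.7 CPM with pyrvinium and 24.3 CPM with DMSO in cluster 2, past 1.5-fold higher (log2 ratio 0.67, 0.26 to 1.079). In clusters 1, 3 and 4 its log2 ratio was -0.46, -0.33 and -0.52. Psmc2 was at 0.49, 0.47, -0.23 and -0.34 on the log2 scale in clusters 1 to 4. Psmd6 was near level in cluster 4 (log2 ratio -0.05) and at -0.34, -0.56 and -0.65 in clusters 1, 2 and 3. Psmd7 had its lowest log2 ratio in cluster 3, at -0.85. Psma7 had its lowest in cluster 4, at -0.56, against -0.11 in cluster 1.

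**Figure D4:**
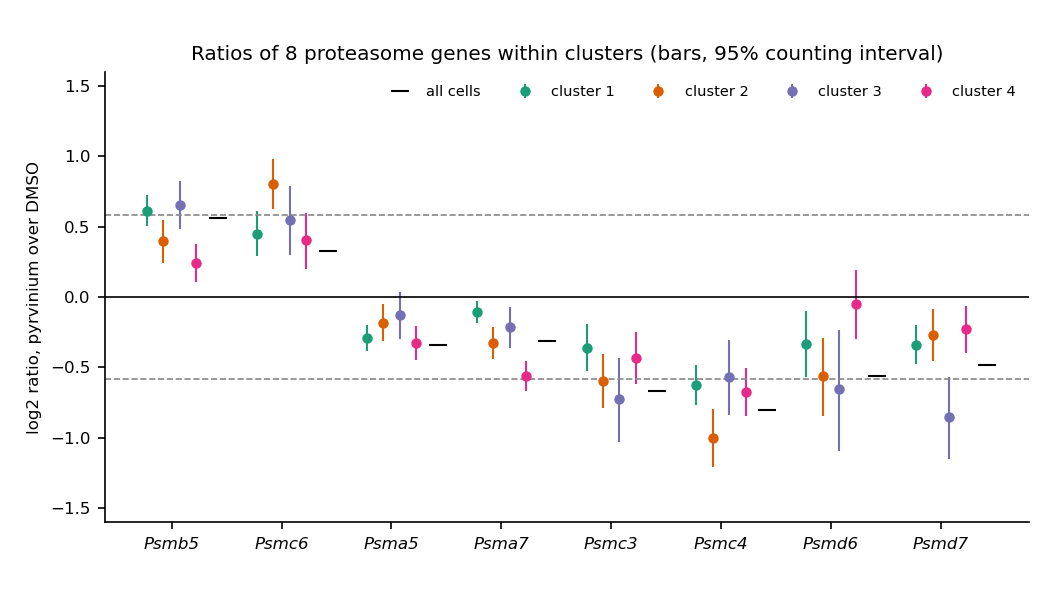
log2 ratio of 8 proteasome genes within clusters 1 to 4, with 95% counting intervals, a black dash for all cells and dashed lines at 1.5-fold; the genes were chosen for the plot after their values were seen. Psmb5 and Psmc6 lie above 0 and Psmc3 and Psmc4 below 0 in each cluster.

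Cell by cell, proteasome counts were less variable in the pyrvinium library. With each cell thinned to 5000 counts, the 37 genes gave a median of 31 counts per pyrvinium cell (quartiles 27 and 37) and 33 per DMSO cell (quartiles 27 and 41). Before thinning the medians were 200 with pyrvinium and 128 with DMSO. The 10th and 90th percentiles were 23 and 42 with pyrvinium and 21 and 47.9 with DMSO. The variance over the mean was 1.73 with pyrvinium and 3.17 with DMSO, where counting alone gives a value near 1. For core genes it was 1.37 with pyrvinium and 2.44 with DMSO, and for regulatory genes 1.45 with pyrvinium and 1.90 with DMSO. Core and regulatory counts per cell had a Pearson r of 0.23 over 854 pyrvinium cells and 0.43 over 1602 DMSO cells. Proteasome counts and counts of the 14 S phase and 14 G2M genes had an r of 0.17 with pyrvinium and 0.39 with DMSO. Cells of a library share its preparation, so these values describe the libraries only. With pyrvinium, 14 of 14 S phase genes and 12 of 14 G2M genes were lower past the limit, against 15.5% of all genes, with median log2 ratios of -1.30 and -0.84. The part of the cell cycle in the lower proteasome sum was not tested. Of the 10 integrated stress response genes, 7 were higher and 1 lower, against 7.57% higher and 15.5% lower among all genes. The lower one was Ppp1r15a, which encodes a phosphatase subunit that ends this response, at 23.8 CPM with pyrvinium and 62.9 CPM with DMSO. The list had an r with proteasome counts of 0.16 in pyrvinium cells and -0.02 in DMSO cells.

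**Figure D5:**
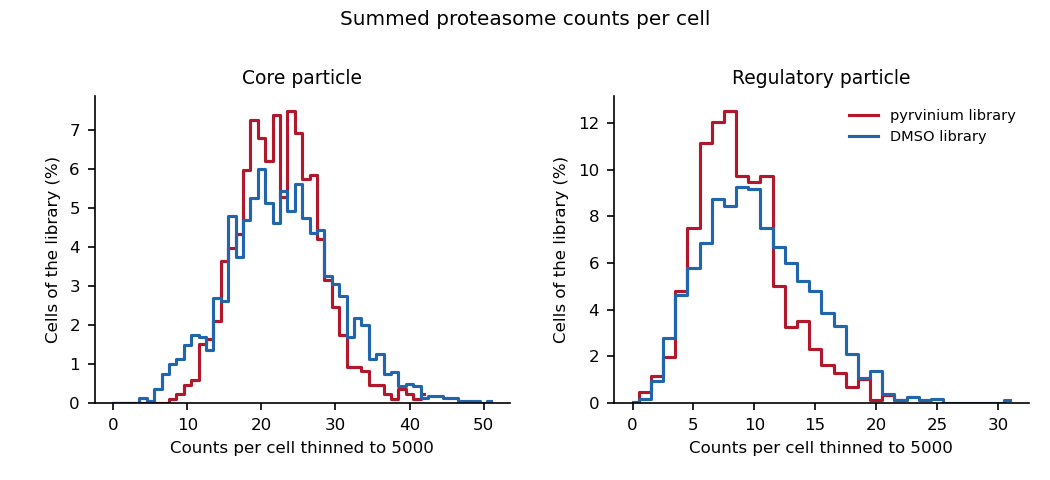
Share of cells of each library by summed core particle counts (left) and regulatory particle counts (right) after thinning to 5000 counts per cell. The DMSO curves are wider than the pyrvinium curves in both panels.

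Genes around the proteasome were mostly level, with a few exceptions. Nfe2l1, the transcription factor named above, was at 38.9 CPM with pyrvinium and 19.7 CPM with DMSO, 1.97-fold higher (log2 ratio 0.98, 0.85 to 1.11). It was past 1.5-fold in all 10 settings, and its log2 ratio was 0.96, 1.02, 1.33 and 0.92 in clusters 1 to 4. Of the 7 genes of its list, Nfe2l1 included, 1 was higher and 1 lower, against 7.57% higher and 15.5% lower among all genes, and the median log2 ratio was -0.18. The higher one was Nfe2l1 itself. The lower one was Maff, a small partner protein of this factor family, at 11.7 CPM with pyrvinium and 20.4 CPM with DMSO. Ddi2, the protease that activates NFE2L1, was at 13.4 CPM with pyrvinium and 12.6 CPM with DMSO, and Ngly1, which removes its sugar chains, at 17.1 CPM with pyrvinium and 15.9 CPM with DMSO. Nfe2l2, the related oxidative stress factor, was at 66.3 CPM with pyrvinium and 75.1 CPM with DMSO.

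Of the 2 subunits with other names, Adrm1, a ubiquitin receptor of the base, was at 64.6 CPM with pyrvinium and 98.0 CPM with DMSO, 1.52-fold lower, but past the limit in only 4 of 10 settings. Sem1, a small lid subunit, was at 622 CPM with pyrvinium and 675 CPM with DMSO. None of the 5 core assembly genes passed 1.5-fold (0 higher, 0 lower, median log2 ratio -0.13). Among all genes the shares were 7.57% higher and 15.5% lower. Pomp, which guides the beta ring into place, was the lowest of them at 236 CPM with pyrvinium and 326 CPM with DMSO. The 5 genes of activators and of the inhibitor Psmf1 also had 0 past the limit, with a median of 0.00. Psme1 was at 33.6 CPM with pyrvinium and 30.7 CPM with DMSO and Psme2 at 54.6 CPM with pyrvinium and with DMSO; Psme2 has a close copy, Psme2b, so its level is less certain. Among the immunoproteasome genes, which replace the catalytic subunits in immune signalling, Psmb8 and Psmb9 were low. Psmb8 was at 0.864 CPM with pyrvinium and 0.300 CPM with DMSO (32 counts with pyrvinium and 12 with DMSO), and Psmb9 at 2.89 CPM with pyrvinium and 1.30 CPM with DMSO. Both were past 1.5-fold higher, against 7.57% of all genes. Psmb10 was at 37.8 CPM with pyrvinium and 52.0 CPM with DMSO (log2 ratio -0.46). Without weighting cells by their depth, Psmb8 lost its call (log2 ratio 0.97).

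Ubiquitin and unfolding genes gave no common direction. Of 12 ubiquitin and conjugation genes, 0 were past 1.5-fold, against 7.57% higher and 15.5% lower among all genes. Their median log2 ratio was -0.08. Ubb, a polyubiquitin gene, was at 2084 CPM with pyrvinium and 2911 CPM with DMSO (log2 ratio -0.48). The 10 deubiquitinase, ligase and shuttle genes had 0 past the limit and a median of 0.03. Of the 8 genes of the Vcp complex, an ATPase that pulls tagged proteins out of membranes, 1 was lower (12.5%, against 15.5% of all genes) and 0 higher. That gene was Ufd1, at 25.2 CPM with pyrvinium and 40.2 CPM with DMSO, and Vcp itself was at 72.1 CPM with pyrvinium and 102 CPM with DMSO (log2 ratio -0.50). Cytosolic chaperone genes were split, with 3 of 12 higher (25%) and 4 lower (33.3%), against 7.57% and 15.5% of all genes. The inducible HSP70 genes Hspa1a (29.3 CPM with pyrvinium and 7.28 CPM with DMSO) and Hspa1b (46.3 CPM with pyrvinium and 13.0 CPM with DMSO) and the small chaperone gene Hspb1 (15.01 CPM with pyrvinium and 7.60 CPM with DMSO) were higher with pyrvinium. Hspa1a and Hspa1b are near-identical copies, so their split of reads is uncertain. Dnajb1, a co-chaperone also induced by heat shock, was at 45.5 CPM with pyrvinium and 137 CPM with DMSO, 3.02-fold lower. Hspa8, Dnaja1 and Stip1 were lower by log2 ratios of -0.90, -0.64 and -0.68.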

How the data were processed

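Per the labels' protocols, cells were captured by PIPseq (T2 kit). Partek and the build GRCm39 are named, per the submitters' processing notes. The sources used here do not name the aligner, counter, annotation, strand setting or barcode filter, or say if molecules or reads were counted. The deposited matrices hold whole-number counts per gene and barcode, not normalized. The deposited gene and barcode lists (other text, no score) give symbol and gene type.

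A barcode was kept as a cell at or above 1/10 of a high total, the 99th percentile among the 2000 largest barcodes (13100 counts for pyrvinium, 9320 for DMSO), with at least 500 genes and at most 20% mitochondrial counts, which removed 0 cells. Doublets were not called. Counts were summed per library and scaled to CPM. Levels have exact Poisson intervals and ratios exact conditional binomial intervals. Genes with at least 20 counts in both libraries together were compared. The 1.5-fold rule was run on counts drawn at random from the DMSO profile with known changes planted. Such draws hold counting error only, so they say nothing of differences between cultures or libraries. No test was run, because each group is 1 library; nothing says how many cultures it holds.

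Cells were clustered (scanpy 1.11.5, 2000 variable genes z-scored per library, 30 components, 15 neighbours, Leiden resolution 0.5). Levels are not corrected for length, and were not compared between genes. The genes named with intervals are the extremes of each role, those past 1.5-fold, the catalytic genes and Psmd14. The members and gene lists were chosen with earlier results of these data known.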

Additional observations from a re-analysis of the deposited data

How the results depend on the processing

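The 37 genes, the core and the regulatory particle had summed log2 ratios of -0.12, -0.066 and -0.24. These were -0.088, -0.037 and -0.21 at a threshold of 1000 counts, -0.094, -0.042 and -0.22 at 3000 counts, -0.14, -0.083 and -0.26 with the pyrvinium threshold in both libraries and -0.13, -0.078 and -0.24 where both libraries were limited to 1 range of counts per cell. They were -0.041, 0.011 and -0.17 scaled without mitochondrial and ribosomal protein genes, -0.033, 0.020 and -0.16 by the median of ratios, -0.088, -0.038 and -0.20 as a mean over cells and -0.059, -0.037 and -0.11 with equal cluster weights. They stayed within the counting interval with 10% free RNA subtracted and without the 5% of cells with the highest totals. The number of genes at least 1.5-fold higher was 1 (Psmb5) instead of 0 in both other scalings and 0 in the other settings. In those scalings 9.77% (without mitochondrial and ribosomal protein genes) and 9.996% (median of ratios) of all genes were past the limit upward. The number lower was 2 to 4 in place of 3. With the count minimum, the shares of all genes in these settings ran from 7.14% to 11.1% upward and from 12.5% to 19.3% downward. Without the count minimum, 4.87% of 26356 genes were past the limit upward and 9.87% downward. The cause of these shifts was not tested. No paired analysis was possible because each group has 1 library, so no replicate could be left out.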
